A study of Mus musculus with 6 samples.

Results

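The genes described here are 28 genes of cholesterol metabolism among the 17666 genes measured in the mouse auditory nerve. They were chosen by symbol from knowledge of the pathway, but with earlier results of these data already known. All 28 were found in the table. They comprise 18 synthesis enzymes, of which 7 act in the mevalonate steps and 11 in the squalene and sterol steps, and 10 genes of regulation and transport, of which 4 are regulators and 6 move or store sterol. RNA was sequenced from auditory nerves microdissected from the cochleas of young adult mice aged 1.5 to 2.5 months. One group was labelled wildtype on a C57 background and the other complement factor B knockout, also C57, with 3 samples each and the 2 cochleas of 1 mouse pooled per sample. The knockout allele, the substrain and the sex are not stated in the labels.

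Cholesterol is built from acetyl-CoA by way of mevalonate, squalene and lanosterol, and the sterol regulatory element binding proteins switch on the genes of this route when membrane sterol is low. Scap carries these factors out of the endoplasmic reticulum and the Insig proteins hold them there. Myelin is rich in cholesterol, and myelinating cells make most of their own, while ABC transporters export sterol and the NPC proteins release it from lysosomes.

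From their form, the values were taken as normalized counts, whole numbers scaled per library and rounded by the authors. How they were scaled was not stated, so the sequencing depth behind them is unknown. Their column totals were 38675077 to 41496282. Differences are knockout minus wildtype on the log2(value + 1) scale, with the standard error (SE) from limma, and adjusted p-values are Benjamini-Hochberg values over all 17666 genes. A gene was called at an adjusted p under 0.05. For a single gene, the lowest p of an exact permutation test at this sample size is 0.1, so none was run.

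Cfb, the gene that encodes complement factor B, went against the labels. The libraries labelled wildtype held 55, 39 and 116 normalized counts of it, and those labelled knockout held 336, 351 and 376. Every library labelled knockout was above every library labelled wildtype, and the authors' deposited table gives a fold change of 5.08. Counts outside a deleted part would not test the deletion, and the position of the deletion was not given, so the groups are called by their labels throughout. Whether labels were exchanged was not tested, and an exchange would reverse every direction given here. Markers of the labelled tissue were abundant. Among genes of myelinating Schwann cells, the myelin protein Mbp ranged from 133466 to 264638 over the 6 libraries. Among genes of spiral ganglion neurons, Calb2, a calcium-binding protein, ranged from 86090 to 124269 and Snap25, a vesicle fusion protein, from 59190 to 125727. None of the 18 myelin, 14 neuron or 11 macrophage genes was at 0 in any library.

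RNA of red cells and marrow moved with the labels. The summed level of 11 red cell entries, led by Hba-a1 and Hbb-b1, was 10849 to 34767 in the wildtype libraries and 2732 to 4010 in the knockout libraries. It was highest in wildtype replicate 3. The entries Hbb-bt and Hbb-b2 had the same value in every library, so the sum may hold some reads more than once. The sum of 10 marrow genes was 828 to 2604 and 51 to 758, again highest in wildtype replicate 3. The sum of 10 organ of Corti genes was 4329 to 14245 and 12389 to 29029, with overlap. That of 9 osteoblast genes was 10428 to 17551 and 11427 to 15712, also with overlap. Their part in the results below was not tested, and results that rest on wildtype replicate 3 are given with and without it.

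The 5′ flanks of 3 members are shown. Hmgcs1 is the synthesis enzyme with the highest level per length and has the one promoter holding the sterol regulatory element letters. Srebf2 is the regulator that the authors' table calls higher, and Nsdhl is the enzyme it calls lower. Each run is the 250 bases before the annotated start, from RefSeq, build GRCm38.p6, plus strand, written 5′ to 3′. Capitals mark the letters of 3 motifs searched on both strands: TCACNCCAC, the sterol regulatory element, CCAAT, bound by NF-Y, and GGGCGG, bound by Sp1. The reverse strand gives ATTGG and CCGCCC for the latter pair, and matches were counted separately even where they share bases.
Hmgcs1 chr13:119690101-119690350: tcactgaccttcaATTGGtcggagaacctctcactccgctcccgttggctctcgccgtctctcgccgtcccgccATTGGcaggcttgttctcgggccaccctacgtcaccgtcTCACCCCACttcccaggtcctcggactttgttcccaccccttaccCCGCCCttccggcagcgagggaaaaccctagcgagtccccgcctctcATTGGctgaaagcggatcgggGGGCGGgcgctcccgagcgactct
Srebf2 chr15:82147019-82147268: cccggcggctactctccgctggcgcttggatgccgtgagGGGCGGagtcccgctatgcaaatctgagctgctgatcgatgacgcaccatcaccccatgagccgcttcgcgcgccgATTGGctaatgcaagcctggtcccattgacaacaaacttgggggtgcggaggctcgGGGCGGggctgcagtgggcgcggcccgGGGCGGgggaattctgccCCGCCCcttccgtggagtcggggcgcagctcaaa
Nsdhl chrX:72918271-72918520: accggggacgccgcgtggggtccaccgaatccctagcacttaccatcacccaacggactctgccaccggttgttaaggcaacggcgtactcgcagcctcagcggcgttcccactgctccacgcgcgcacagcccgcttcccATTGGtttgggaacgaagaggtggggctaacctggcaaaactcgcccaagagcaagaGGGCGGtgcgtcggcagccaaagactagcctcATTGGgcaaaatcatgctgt

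RefSeq gave 28 windows of 300 bases around the starts of 22 of the 28 members. Fdps, Fdft1, Sqle, Stard4, Abcg1 and Npc1 had no entry. The element TCACNCCAC was in 1 of the 28 windows, or 3.57%, against 1.22% of 17023 windows of genes in the table. That match is the run TCACCCCAC in Hmgcs1, whose first base lies at position -137 from the start. CCAAT was in 19 of 28 windows, or 67.9%, against 37.2% of all windows. Among synthesis enzymes it was in 14 of 18 windows and among regulators and transport genes in 5 of 10. GGGCGG was in 24 of 28 windows, or 85.7%, against 56% of all. These are counts of letters, with several windows from some genes, and a window without a match says nothing of the factor.

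Hmgcs1, which makes HMG-CoA, was the member with the highest level per kilobase of its longest annotated transcript, at 4537 normalized counts per kb over the 6 libraries. Npc2 followed at 1840 per kb, Insig1 at 1595, Msmo1 at 1447 and Srebf2 at 1329. Tm7sf2, a sterol reductase, and Fdps, which makes farnesyl diphosphate, were lowest at 140.7 and 136.6 per kb. All 28 members had a mean of at least 1 and none was lost to the filter on low values.

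None of the 28 members passed limma's test, in a comparison that called 0.158% of all genes, 28 of 17666. Their adjusted p-values ranged from 0.161 to 0.955. Srebf2 was higher at an unadjusted p under 0.05, as were 10.8% of all genes, and Acat2, Msmo1, Nsdhl, Ebp and Npc2 were the 5 members lower at that level, as were 9.20% of all genes. In the authors' deposited table Srebf2 is the 1 member called higher at a false discovery rate under 0.05, beside 4.14% of the 15605 genes with a rate. Nsdhl is the 1 member it calls lower, beside 3.25%. The authors' rate and limma's adjusted p are different tests, and neither member was called by both.

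The synthesis enzymes stood mostly lower in the knockout libraries. Of the 18, 16 had a negative difference, with a median of -0.25 and a range of -0.68 to 0.07, while over all genes 49.3% were negative and the median was 0.01. All 7 mevalonate enzymes were negative, with a median of -0.25, and 9 of the 11 squalene and sterol enzymes were, with a median of -0.26. Among the 10 regulators and transport genes 7 were positive and the median was 0.16. The groups did not overlap for 5 of the 18 enzymes, or 27.8%, all with the knockout below, where 14.9% of all genes lie that way. In bulk tissue, fewer cells of a type and less RNA per cell cannot be told apart. The limma p-values set each difference against the spread between the libraries of these groups, pooled over both groups and moderated over all genes.

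**Figure D1:**
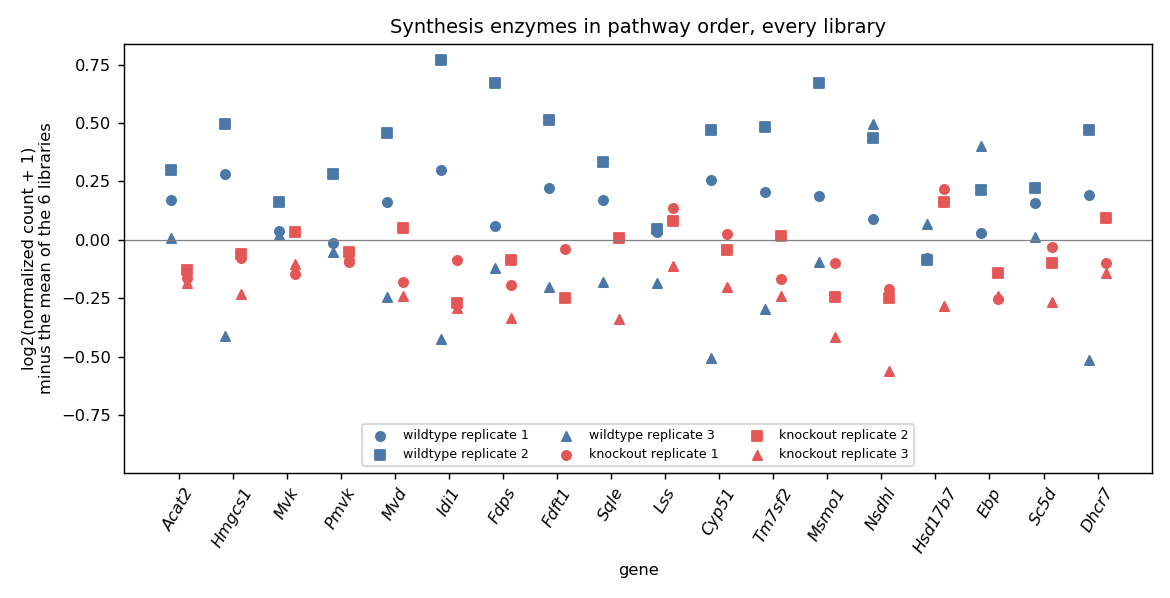
Each synthesis enzyme, in pathway order, in each of the 6 libraries (blue wildtype, red knockout; shapes are replicates), as log2(normalized count + 1) minus the mean of the 6 libraries. Wildtype replicate 2 is highest of all 6 for 14 of the 18 enzymes.

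The mevalonate enzymes begin with Acat2, a thiolase that joins acetyl-CoA units. Its normalized counts were 1762, 1926 and 1573 in the wildtype libraries and 1399, 1431 and 1377 in the knockout libraries. All 3 knockout libraries lay below all 3 wildtype libraries, with a difference of -0.32 (SE 0.11, limma adjusted p = 0.202). Its neighbour Acat3, a close copy, had only 24 to 41 normalized counts, and how the counting treated reads that fit both was not given. Hmgcs1, chosen after its values were seen, had 18695, 21680 and 11554 against 14572, 14722 and 13075. The lowest of its 6 values was wildtype replicate 3, and the groups overlapped, with a difference of -0.25 (SE 0.23, limma adjusted p = 0.589).

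Idi1, which isomerizes isopentenyl diphosphate, had 3642, 5054 and 2207 normalized counts in the wildtype libraries and 2792, 2451 and 2419 in the knockout libraries. Wildtype replicate 2 was highest and wildtype replicate 3 lowest of the 6, and the difference was -0.43 (SE 0.28, limma adjusted p = 0.423). Without wildtype replicate 3 it was -0.75 and was called (limma adjusted p = 0.0487), and without wildtype replicate 2 it was -0.15 (limma adjusted p = 0.751, the highest of the 16 other settings). Fdps, which makes farnesyl diphosphate, had 409, 626 and 361 against 343, 370 and 311, with the 3 knockout values within or below the wildtype range (difference -0.41, SE 0.23, limma adjusted p = 0.352). Mvk, Pmvk and Mvd turn mevalonate into isopentenyl diphosphate. Over the 6 libraries they ranged from 750 to 928, from 1367 to 1775 and from 567 to 925 normalized counts, with differences of -0.14, -0.14 and -0.25 and overlapping groups.

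Among the squalene and sterol enzymes, Nsdhl had the largest difference in size of all 28 members. It acts in the removal of the methyl groups of lanosterol. It had 1434, 1821 and 1896 normalized counts in the wildtype libraries and 1164, 1133 and 911 in the knockout libraries. Every knockout value lay below every wildtype value, and the mean was 1717 ± 248 in the wildtype and 1069 ± 138 in the knockout libraries (SD, n = 3 each), which is -37.7% relative to the wildtype mean. The difference was -0.68 (SE 0.16, limma adjusted p = 0.161), and the authors' deposited table gives a signed fold change of -1.61 with a false discovery rate of 0.00953. Under the 16 other settings the difference ran from -0.81 to -0.57 and the adjusted p from 0.0610 to 0.485.

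Ebp, the sterol isomerase, had 1010, 1148 and 1309 normalized counts against 831, 897 and 838, again without overlap (difference -0.43, SE 0.13, limma adjusted p = 0.178). Wildtype replicate 3 was the highest of the 6 libraries for both Nsdhl and Ebp, and lowest of the 3 wildtype libraries for 15 other enzymes. Both genes are on the X chromosome, Nsdhl at 72918521 to 72958528 and Ebp at 8185329 to 8193512 (GRCm38). All 6 libraries had few counts of Xist, 20 to 40, and 4314 to 5579 of the Y-linked Ddx3y, with the Ddx3y values of the knockout libraries all below those of the wildtype libraries. Both were chosen after their values were seen.

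Msmo1, a methyl sterol oxidase, had 4742, 6626 and 3899 normalized counts in the wildtype libraries and 3884, 3510 and 3116 in the knockout libraries. The nearest values were 3899 and 3884, so the groups were separate by a narrow gap (difference -0.51, SE 0.20, limma adjusted p = 0.229). Sc5d, the sterol desaturase, had 2968, 3107 and 2685 against 2605, 2485 and 2215, also without overlap (difference -0.26, SE 0.11, limma adjusted p = 0.253). Fdft1, squalene synthase, had 2985, 3659 and 2225 against 2490, 2158 and 2164, with wildtype replicate 3 inside the knockout range (difference -0.35, SE 0.19, limma adjusted p = 0.330). It shares exon sequence on the opposite strand with Ctsb, whose mean was 50789.7 normalized counts, and the use of strand in counting was not given, so its values are uncertain. Exons of Cyp51 overlap Akap9 on the opposite strand and those of Tm7sf2 overlap Vps51 on the same strand, so both are uncertain too. Exons of Hmgcs1, Idi1, Lss, Npc1 and Scap overlap other annotated genes on the opposite strand and those of Fdps overlap one on the same strand. Of these overlapping genes only that of Lss was in the table, at a mean of 4.7 normalized counts, and what the others add to the members was not measured.

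The other 6 enzymes did not have separate groups. Sqle, squalene monooxygenase, Cyp51, the lanosterol demethylase, Tm7sf2 and Dhcr7, which makes the final reduction, had differences of -0.22, -0.15, -0.26 and -0.10. Their values ranged from 2292 to 3655, from 2335 to 4595, from 346 to 595 and from 864 to 1707 normalized counts over the 6 libraries. Lss, which cyclizes squalene epoxide to lanosterol, and Hsd17b7, a sterol ketone reductase, were the 2 enzymes with a positive difference, 0.07 and 0.06, and ranged from 2203 to 2750 and from 1670 to 2364 normalized counts. Lss was negative under 2 settings and Hsd17b7 under 3.

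Srebf2, the transcription factor of the pathway, had 6444, 5125 and 5488 normalized counts in the wildtype libraries and 7962, 7849 and 7619 in the knockout libraries. Every knockout value was above every wildtype value, with means of 5686 ± 681 and 7810 ± 175 (SD, n = 3 each), 37.4% higher. The difference was 0.46 (SE 0.12, limma adjusted p = 0.162), and the authors' deposited table gives a fold change of 1.37 with a false discovery rate of 0.0187. Under the 16 other settings it ran from 0.32 to 0.56, with the adjusted p from 0.0610 to 0.485. Scap, its escort, had 3920, 3288 and 3644 against 4217, 4354 and 4262, without overlap (difference 0.25, SE 0.10, limma adjusted p = 0.251). These 2 are 20% of the 10 regulators and transport genes, where 13.6% of all genes lie with the knockout above. They are 7.14% of the 28 members.

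The Insig proteins, which hold Scap in the endoplasmic reticulum, stood the other way in the mean. Insig2 had 2715, 3391 and 3865 normalized counts against 2746, 2460 and 2720, with wildtype replicate 1 inside the knockout range (difference -0.32, SE 0.15, limma adjusted p = 0.279). Insig1 had 3892, 4562 and 5224 against 4606, 3695 and 3827, with overlap (difference -0.17, SE 0.15, limma adjusted p = 0.550).

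**Figure D2:**
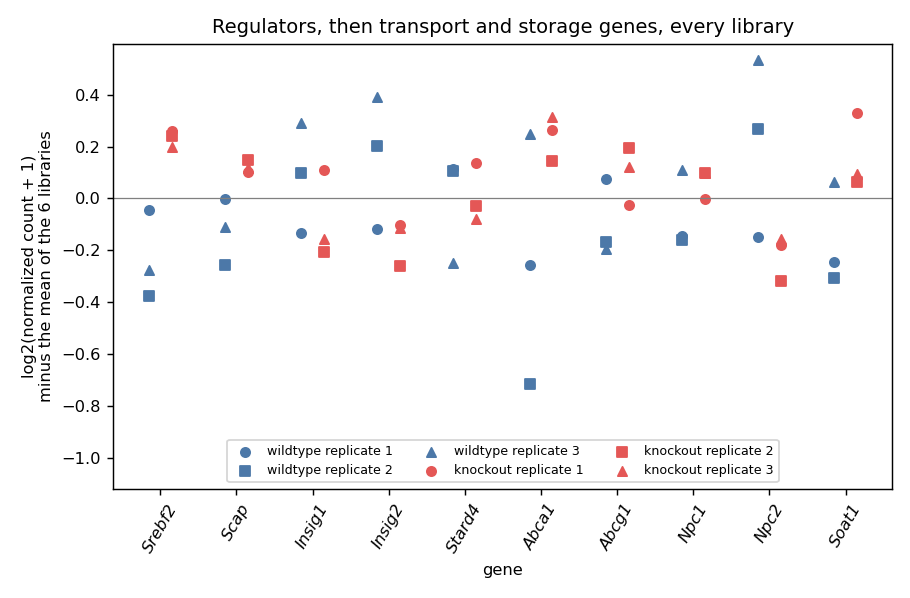
The 4 regulators, then the 6 transport and storage genes, in each of the 6 libraries, as log2(normalized count + 1) minus the mean of the 6 libraries. The knockout points of Srebf2 and Scap lie above their wildtype points, and those of Npc2 lie below.

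Of the transport and storage genes, Npc2, a soluble lysosomal carrier of sterol, had 5356, 7154 and 8590 normalized counts in the wildtype libraries and 5241, 4757 and 5323 in the knockout libraries. All knockout values were below the wildtype values, the nearest being 5323 and 5356 (difference -0.44, SE 0.18, limma adjusted p = 0.239). Its membrane partner Npc1 ranged from 5658 to 6824 normalized counts, with a difference of 0.13 and overlapping groups. Abca1, which exports sterol to apolipoprotein, had 4238, 3088 and 6014 against 6088, 5606 and 6303, with wildtype replicate 3 inside the knockout range (difference 0.48, SE 0.23, limma adjusted p = 0.289). Without wildtype replicate 3 it was 0.73 and was called (limma adjusted p = 0.0474); after correction for transcript length it was 0.004 (limma adjusted p = 0.994, the highest of the 16 other settings).

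Soat1, which esterifies cholesterol for storage, had 1614, 1547 and 2001 normalized counts against 2407, 2000 and 2046, with wildtype replicate 3 just above the lowest knockout value (difference 0.33, SE 0.14, limma adjusted p = 0.253). Abcg1, which exports sterol to lipoprotein, and Stard4, a soluble sterol carrier, ranged from 3720 to 4877 and from 1392 to 1821 normalized counts, with differences of 0.19 and 0.02 and overlapping groups.

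These differences depended on which wildtype libraries were compared. Wildtype replicate 2 was the highest of the 3 wildtype libraries for 15 of the 18 enzymes and wildtype replicate 3 the lowest for 15. The synthesis median was -0.41 without wildtype replicate 3 and -0.10 without wildtype replicate 2. As an alternative added after seeing the data, groups without wildtype replicate 3 were compared. The knockout lay below for 16 of 18 enzymes, where 24.2% of all genes did. It lay above for Srebf2, Scap, Abca1, Npc1 and Soat1, 5 of the 10 regulators and transport genes, where 23.4% of all genes did. Since wildtype replicate 3 was the lowest wildtype library for 15 enzymes, its removal favours separation of the enzymes. It was the highest wildtype library for Abca1, Npc1 and Soat1, so its removal favours their separation too. The 24.2% and the 23.4% are therefore not like baselines. Without wildtype replicate 1 or wildtype replicate 2, comparisons also added after seeing the data, the number of enzymes below was 5 each time, where 22.1% and 17.3% of all genes were below. In limma without wildtype replicate 3, 2.54% of genes were called higher, Abca1 among them, and 0.663% lower, Idi1 among them.

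**Figure D3:**
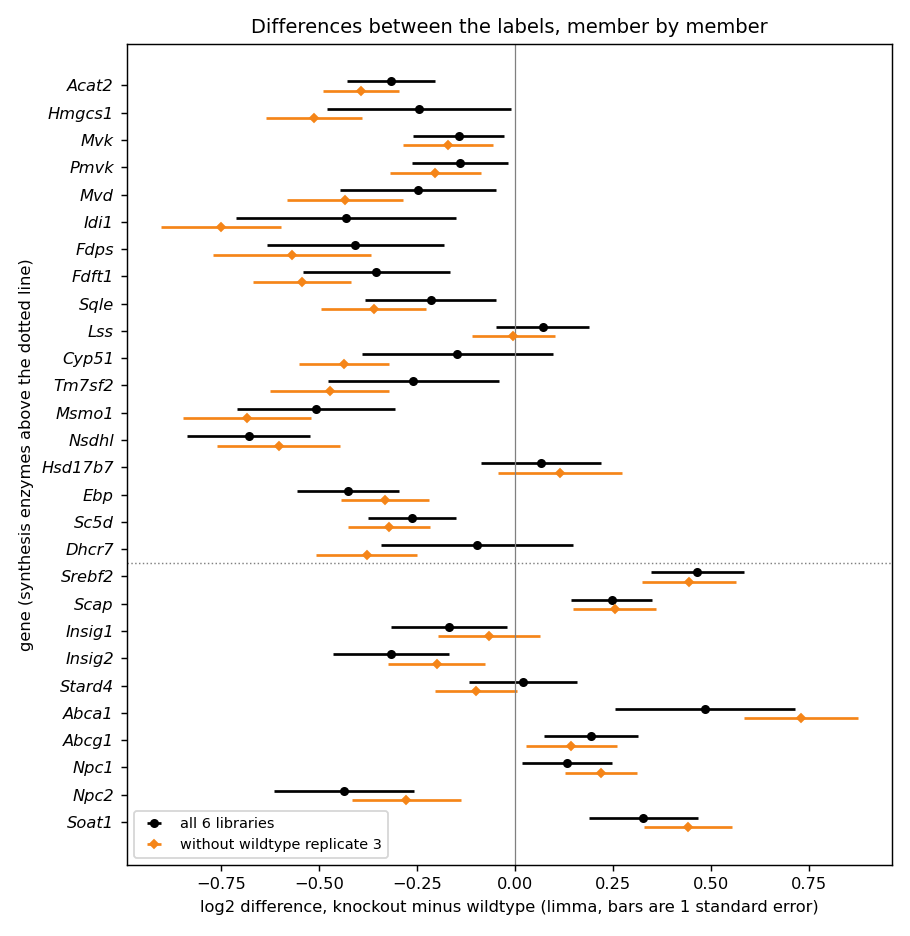
The log2 difference, knockout minus wildtype, of every member with bars of 1 standard error, over all 6 libraries (black) and without wildtype replicate 3 (orange). For 16 of the 18 enzymes, above the dotted line, the black point is below 0.

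The spread between libraries was wider in the wildtype group. The median coefficient of variation of the enzymes was 20.8% in the wildtype group and 8.51% in the knockout group, and it was larger in the wildtype group for 15 of 18. Across the 13375 genes whose mean was 100 or more, the medians were 17.0% and 7.31%, and the wildtype group was larger for 85.6%.

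The level of the enzymes went with that of myelin genes from library to library. The mean deviation of the 18 enzymes from their 6-library mean was 0.14, 0.38 and -0.12 (log2) in the wildtype libraries and -0.08, -0.07 and -0.25 in the knockout libraries. Over 18 genes of myelinating Schwann cells it was 0.25, 0.38 and -0.27 and -0.11, 0.00 and -0.25. The difference of the lists had a mean of 0.01 ± 0.13 in the wildtype group and -0.01 ± 0.05 in the knockout group (SD, n = 3 each). Of the 18 myelin genes 14 had a negative difference, with a median of -0.21, and the authors' deposited table calls 3 of them lower, Pmp22, Mal and Ncmap, where it calls 3.25% of all genes with a rate. Neuron genes had deviations of 0.30, -0.04 and -0.58 in the wildtype libraries and -0.04, 0.22 and 0.14 in the knockout libraries. The part of myelinating cells or neurons in the enzyme levels was not tested. Regulators and transport genes had deviations of -0.09, -0.13 and 0.08 and of 0.09, 0.01 and 0.04, and macrophage genes of 0.04, 0.05 and 0.04 and of 0.10, -0.09 and -0.13.

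**Figure D4:**
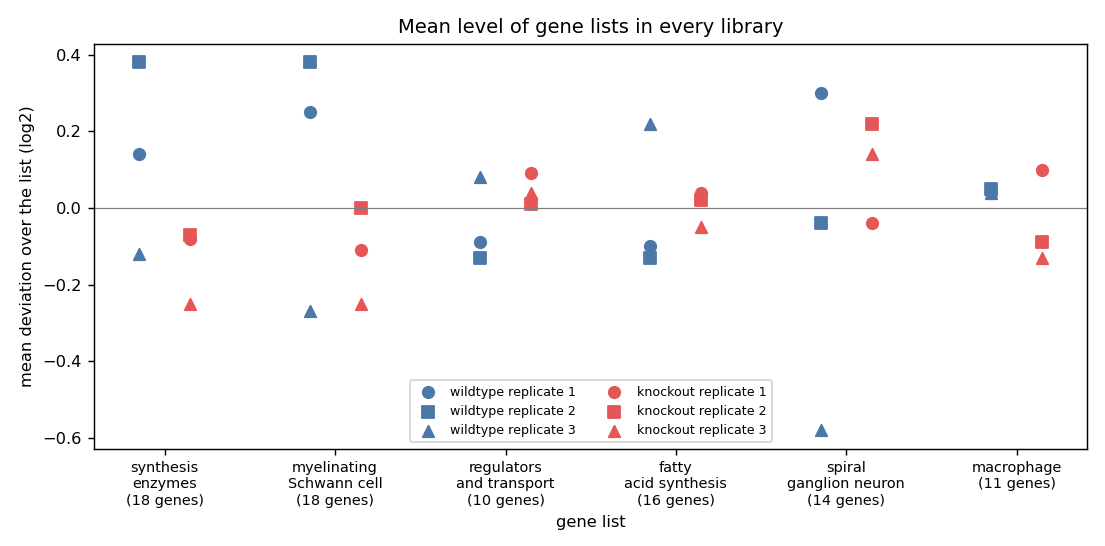
Mean deviation of 6 gene lists from the mean of the 6 libraries, in log2 units, for each library (blue wildtype, red knockout; shapes are replicates). Synthesis enzymes and myelinating Schwann cell genes are both highest in wildtype replicate 2, at 0.38.

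Transcript length also moved with the difference. With genes in 5 equal groups by length, from short to long, the median difference was -0.23, -0.10, -0.02, 0.07 and 0.28. The enzymes had a median transcript length of 2998 bases, the regulators and transport genes 5087 and all genes 3183. After correction of each library for length, the enzyme median was -0.25, with 17 of 18 negative, and that of regulators and transport genes was -0.06, with 7 of 10 negative, so the sign of the latter turned. Srebf2 was 0.32, Scap 0.17, Nsdhl -0.57 and Ebp -0.27 after it.

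**Figure D5:**
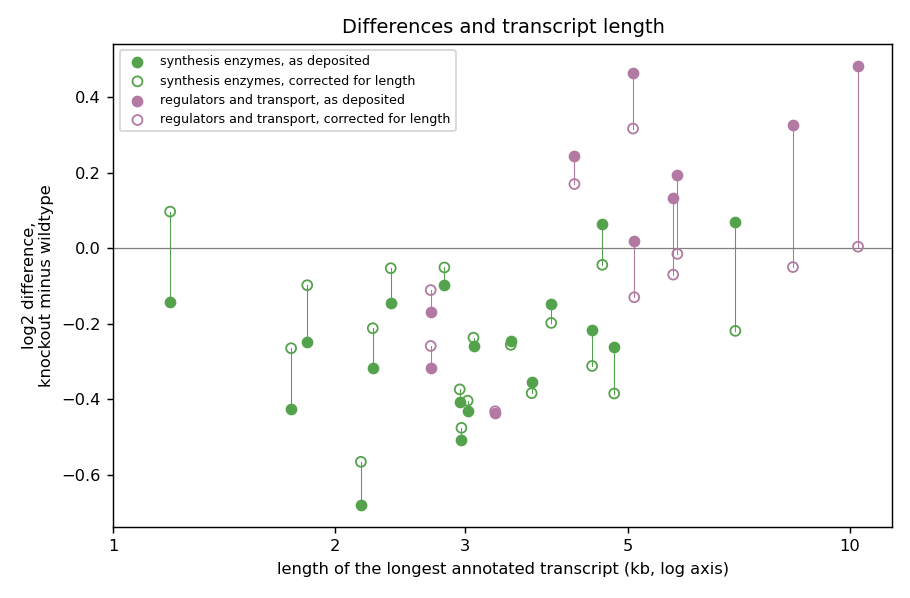
Log2 difference, knockout minus wildtype, of the 28 members against the length of their longest annotated transcript in kb (log axis); filled points are as deposited and open points are corrected for length. Soat1 and Abca1, the longest of the transport genes, move from 0.33 and 0.48 to -0.05 and 0.004.

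Other sterol genes, 36 in number and all measured, had 14 positive and 22 negative differences with a median of -0.09, and limma called 0 of them. At an unadjusted p under 0.05, 4 were higher, beside 10.8% of all genes, and 4 lower, beside 9.20%. The authors' deposited table calls 1 higher and 1 lower, beside 4.14% and 3.25% of all genes with a rate. Lrp1, a large endocytic receptor of lipoproteins, had 16109, 10007 and 24382 normalized counts in the wildtype libraries and 41395, 38488 and 45472 in the knockout libraries, without overlap. Its difference was 1.40 (SE 0.31, limma adjusted p = 0.158) and 0.73 after length correction, its longest transcript being 14888 bases, and the fold change in the authors' deposited table is 2.48. Lrp1 was called by limma without wildtype replicate 3, at 1.72 (adjusted p = 0.0205), and with array weights, at 1.57 (adjusted p = 0.0304). Over the 16 other settings its limma adjusted p ran up to 0.485. Tmem97, a sterol-responsive membrane protein, had 463, 658 and 486 against 395, 324 and 301, without overlap (difference -0.65, SE 0.19, limma adjusted p = 0.174; authors' signed fold change -1.58).

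Of 16 genes of fatty acid synthesis 9 were positive and 7 negative, with a median of 0.06, and limma called 0, with 1 higher and 1 lower at an unadjusted p under 0.05, beside 10.8% and 9.20% of all genes. Elovl1, a fatty acid elongase, is the 1 gene the authors' deposited table calls, with a signed fold change of -1.41, where it calls 3.25% of all genes lower. It had 3814, 4855 and 4637 normalized counts against 3474, 3038 and 2904, without overlap (difference -0.50, SE 0.13, limma adjusted p = 0.164).

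Without wildtype replicate 3, limma called 3 of the fatty acid genes higher, beside 2.54% of all genes. They are named for that, after their values were seen. Srebf1, the counterpart of Srebf2 for fatty acids, had 5862, 5872 and 10118 normalized counts in the wildtype and 10646, 9518 and 11028 in the knockout libraries. Wildtype replicate 3 lay inside the knockout range. The difference of Srebf1 was 0.56 over all 6 libraries and 0.82 without wildtype replicate 3 (limma adjusted p = 0.0218). Fasn, fatty acid synthase, had 10146, 7343 and 22962 against 17164, 17130 and 17461, with wildtype replicate 3 the highest of the 6. Its difference was 0.53 over all 6 libraries and 1.00 without wildtype replicate 3 (limma adjusted p = 0.0296). It was 0.18 without wildtype replicate 2 and 0.06 after length correction. Acacb, an acetyl-CoA carboxylase, had 595, 440 and 3930 normalized counts in the wildtype libraries and 982, 1010 and 1310 in the knockout libraries, so wildtype replicate 3 was the highest of the 6. Its difference was 0.11 over all 6 libraries and 1.09 without wildtype replicate 3 (limma adjusted p = 0.0372). It was -0.49 without wildtype replicate 2 and -0.29 after length correction. On the unlogged scale its direction was the opposite, with a mean of 1655 in the wildtype and 1101 in the knockout libraries. The authors' deposited table gives a signed fold change of -1.5. Over the 16 other settings the highest limma adjusted p was 0.497 for Srebf1, 0.949 for Fasn and 0.993 for Acacb.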

How the data were processed

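RNA sequencing data of 6 mouse auditory nerve samples were used as deposited. The submitters' processing notes list TopHat2, DESeq2 and Partek and the build mm10, and give neither roles nor versions; RNA came from the miRNeasy kit and libraries from the TruSeq kit, per the labels' protocols. The deposited values are a score, gene counts that the authors scaled and rounded, as read from the values; 0 columns of sample values were left unused. A signed fold change and a false discovery rate (an adjusted p-value), both from the authors, stand beside these, and 2061 genes lack the rate. Values were taken as log2(value + 1) of the deposited numbers and fitted with limma 3.58.1 in R 4.3.3, with no term but the label and a trended eBayes step, two-sided. The filter, a mean of 1 or more, removed 0 genes. The script was tested on simulated data. Transcript lengths and exon overlaps came from GENCODE M21, with lengths for 98.9% of genes.

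The members and lists were chosen with earlier results of these data known. Values in every sample are given for members that limma or the authors call or whose groups do not overlap, then the 3 enzymes and 3 other members with the largest differences, then Srebf2 and Insig1; Hmgcs1 was added after its values were seen. Some genes of the pathway and of the marker lists are not reported here. Lists were described, not tested. Same-numbered samples had correlations of -0.034, 0.086 and 0.201.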

Additional observations from a re-analysis of the deposited data

How the results depend on the processing

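The number of genes called by limma depended on the libraries. It was 28 over all 6, 111 with array weights, 16 with eBayes without a trend, 7 with the replicate block and 0 to 566 without 1 library, highest without wildtype replicate 3 (87 without replicate 1 and 2 without replicate 2) and 0 without any 1 knockout library. Without 1 library, members called were 0 to 2, synthesis enzymes 0 to 1, regulators and transport genes 0 to 1, other sterol genes 0 to 1 and fatty acid genes 0 to 3. With array weights 1 other sterol gene was called, Lrp1. Correlations of same-numbered samples were not all over 0.1, and wildtype replicate 1 correlated best with knockout replicate 2, at 0.391. With so few libraries per group these values cannot exclude a pairing or shared batch, so the main fit used no such term. With the replicate block 0 members were called. With correction for transcript length the median was -0.06 for regulators and transport genes and -0.18 for fatty acid genes; the cause was not tested. Of the 28 members, 19 kept the sign of their difference under all 16 settings and 9 changed it under some. These 9 were never called. The settings that changed only the filter, the eBayes trend or the replicate block left each member's difference as it was. They could not change a sign. Depth is unknown, so counting error is not given.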
